A study of Mus musculus with 2 samples.

Results

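The 53 genes described here encode subunits of the mitochondrial respiratory chain and ATP synthase together with cytochrome c, 13 of them carried by mitochondrial DNA and 40 by nuclear chromosomes. They were taken as a named gene module, with earlier results of these data known, and all 53 had a row among the 11691 genes of the table. They were followed through blood leukocytes of C57BL/6 mice, collected 24 h after the proximal middle cerebral artery had been occluded for a time and reopened, a model of ischemic stroke. One library came from young mice of 2 to 4 months and 1 from aged mice of 18 to 24 months, and both groups had the same operation. No sham-operated or untreated animals were analysed here. Cells had been sorted as CD11b+ Ly6G– and as CD11b+ Ly6G+, so the populations are those that such gates let through.

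Oxidative phosphorylation passes electrons from NADH and succinate through complexes I, II, III and IV of the inner mitochondrial membrane to oxygen, and complex V, the ATP synthase, uses the resulting proton gradient to make ATP. Complexes I, III, IV and V combine subunits from both genomes, whereas complex II and cytochrome c are wholly nuclear. Neutrophils are known for few mitochondria and for making ATP mainly by glycolysis, while monocytes, dendritic cells and lymphocytes carry more mitochondria.

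Wherever a pair of values is given without further words, the young library comes before the aged one. After removal of likely doublets the libraries held 1822 and 3820 cells, out of 1849 and 3944 with 6440664 and 13752454 UMIs in all, and lowest depths of 1260 and 1451 UMIs (unique molecules counted) per cell. Population names are the authors' labels. The neutrophil marker list took 33.3% and 42.1% of neutrophil UMIs, and in NK cells, which should lack it, 1.13% and 2.99%, a guide to free neutrophil RNA that stood higher in the aged library. The part of such RNA in the differences between libraries was not tested. The 42 cells labelled Mast cell, all aged, held 341 UMIs of Mcpt8, a basophil protease, but 1 of Kit and 0 of Cma1, so defining mast cell transcripts were at or near 0. Erythroid genes made up 88.5% and 65.6% of UMIs in the 13 and 15 cells labelled Eryth-Neutro. The libraries shared 12 cell barcodes. With 1 library per age nothing could be tested, every statement on age compares these 2 libraries, and the 95% intervals cover counting error only.

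The mitochondrial genes lie close together on chromosome M of GRCm38, from position 2751 (start of mt-Nd1) to 15288 (end of mt-Cytb), 12 on the plus strand and mt-Nd6 on the minus strand. Some share bases with the next gene, so that a read there cannot be given to 1 gene by position alone. The last 60 bases of 3 such genes are shown, 5′ to 3′, from GENCODE M21, and capitals mark the bases that also belong to the next gene on the strand: 43 of mt-Atp8 in mt-Atp6, 7 of mt-Nd4l in mt-Nd4 and 1 of mt-Atp6 in mt-Co3. The ends of mt-Nd1 and mt-Co1, which overlap no other member, are printed beside them because mt-Nd1 had the widest gap between monocytes and neutrophils of all members and mt-Co1 the narrowest of the mitochondrial ones.
mt-Atp8 (chrM:7910-7969, plus strand): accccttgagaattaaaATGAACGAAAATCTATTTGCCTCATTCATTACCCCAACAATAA
mt-Nd4l (chrM:10114-10173, plus strand): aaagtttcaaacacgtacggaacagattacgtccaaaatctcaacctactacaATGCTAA
mt-Atp6 (chrM:8548-8607, plus strand): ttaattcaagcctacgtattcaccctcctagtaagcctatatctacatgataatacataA
mt-Nd1 (chrM:3648-3707, plus strand): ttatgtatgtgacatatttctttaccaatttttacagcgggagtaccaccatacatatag
mt-Co1 (chrM:6813-6872, plus strand): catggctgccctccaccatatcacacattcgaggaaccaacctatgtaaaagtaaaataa

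The first comparison was of the share of each population's RNA that these genes made up. Neutrophils had the lowest shares of the 5 leukocyte populations found in both libraries, and the gap was wider for the mitochondrial genes. The 40 nuclear genes took 0.937% and 0.738% of all UMIs in neutrophils, against 2.21% and 2.40% in monocytes. The 13 mitochondrial genes took 0.485% and 0.383% in neutrophils, against 2.80% and 2.54% in monocytes. The libraries lay close together beside the distance between these cell types, and the ranges between the quartiles over cells did not overlap.

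Conventional dendritic cells (52 and 104 cells) stood near monocytes, with nuclear shares of 1.81% and 1.98% and mitochondrial shares of 2.57% and 2.35%. NK cells (70 and 58 cells) had 1.74% and 1.62% nuclear and 2.23% and 2.27% mitochondrial. Follicular B cells were few (14 and 41 cells), and had the highest mitochondrial shares, 3.72% (3.58% to 3.87%) and 3.70% (3.63% to 3.77%) with exact binomial intervals, next to nuclear shares of only 1.33% and 1.78%. The cells labelled Mast cell had 1.32% nuclear and 1.45% mitochondrial. In the Eryth-Neutro cells, where erythroid transcripts filled most of the total, nuclear members took 0.148% and 0.360% and mitochondrial members 0.131% and 0.230%.

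**Figure D1:**
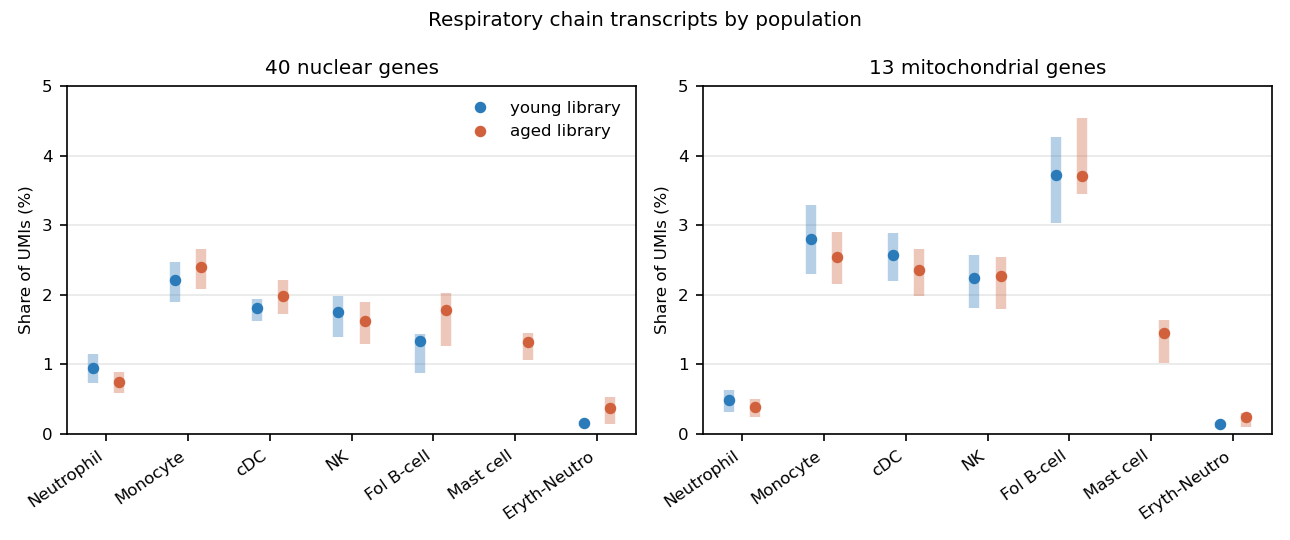
Share of all UMIs (%) taken by the 40 nuclear genes (left) and the 13 mitochondrial genes (right) in each population the authors labelled, with the young library in blue and the aged in orange. Points are summed counts and bars span the quartiles over cells. Neutrophils, at 0.937% and 0.738% nuclear and 0.485% and 0.383% mitochondrial, sit below monocytes, dendritic cells, NK cells and B cells in both panels.

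Counted in molecules the gap was larger, because neutrophils also yielded fewer UMIs in all, with medians of 1629 and 1900 per cell against 6606.5 and 6401.5 in monocytes. The median neutrophil held 16 and 14 nuclear and 8 and 7 mitochondrial UMIs of these genes, and the median monocyte 147 and 155 nuclear and 187 and 160 mitochondrial. When every cell was thinned to 500 UMIs, 12.97% of young neutrophils (11.1% to 15.1%) and 19.1% of aged ones (17.7% to 20.7%) had no mitochondrial UMI left. No monocyte lost them all, which for 0 of 540 and 932 cells allows up to 0.681% and 0.395% by the exact binomial limit. Without thinning, 5 and 21 neutrophils had none.

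Neutrophils had the lowest CPM (UMIs per 1e+06 UMIs of that population and library) of the 5 populations for 44 and 51 of 53 members, beside 40.2% and 52% of all genes with at least 20 UMIs. Monocytes had the highest for 31 and 35, of which 31 and 34 were nuclear, beside 16.9% and 17.7% of all genes. B cells had the highest for 12 and 11, of which 11 and 10 were mitochondrial, beside 20.8% and 22.7%. mt-Atp6, the member with the most UMIs in all, was at 723 and 542 CPM in neutrophils, 4797 and 5084 in NK cells, 5781 and 5296 in dendritic cells, 6223 and 5676 in monocytes and 8275 and 8144 in B cells. Cycs, which carries electrons from complex III to complex IV, was instead highest in dendritic cells, at 354 and 371 CPM, with 347 and 208 in NK cells, 204 and 249 in monocytes, 59.6 and 201 in B cells and 20.2 and 14.8 in neutrophils. In the young library the levels of dendritic and NK cells lay close together. Atp5l, at 1003 and 717 CPM in neutrophils, stood there above B and NK cells in the young library and below all others in the aged one, with 596 and 901 in B cells, 795 and 803 in NK cells, 1002 and 1124 in dendritic cells and 1281 and 1337 in monocytes.

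The ratio of mitochondrial to nuclear member UMIs is free of the other transcripts in a cell. Summed over cells it was 0.518 (0.505 to 0.531) and 0.519 (0.510 to 0.528) in neutrophils, with intervals that overlapped. It was 1.27 (1.26 to 1.28) and 1.06 (1.05 to 1.07) in monocytes, 1.42 (1.38 to 1.47) and 1.19 (1.16 to 1.21) in dendritic cells, 1.28 (1.22 to 1.35) and 1.40 (1.33 to 1.48) in NK cells and 2.80 (2.59 to 3.02) and 2.08 (2.01 to 2.15) in B cells. The aged value was the lower one in monocytes, dendritic cells and B cells, with intervals that did not overlap, while the intervals of NK cells overlapped. Neutrophils were thus the only one of these 5 populations with fewer mitochondrial than nuclear UMIs.

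Single cells showed the same order. The median ratio per neutrophil was 0.50 and 0.50, with quartiles of 0.308 and 0.733 (young) or 0.300 and 0.727 (aged), and every cell had at least 1 nuclear member UMI, so none was left out. Per monocyte it was 1.27 and 1.07, with quartiles of 1.03 and 1.56 (young) or 0.865 and 1.31 (aged). Over the 14 and 41 B cells the median was 3.03 and 2.67, and the ranges between quartiles overlapped (2.43 to 4.48 and 1.66 to 3.79). B cells had median depths of 3463.5 and 5717 UMIs, and their nuclear share rose with depth (Spearman's rho of 0.62 and 0.77). The part of depth in the B cell difference was not tested. More mitochondrial than nuclear UMIs were found in 9.36% and 9.97% of neutrophils and in 76.9% and 58.5% of monocytes. Across the neutrophils or the monocytes of 1 library, the nuclear and mitochondrial shares hardly varied together. Thinned to 500 UMIs, Spearman's rho was 0.01 and −0.01 over neutrophils and −0.04 and −0.05 over monocytes. Over the few B cells it was 0.23 and −0.28 thinned, and −0.09 and −0.62 without thinning. These values describe sparse counts that share a total.

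**Figure D2:**
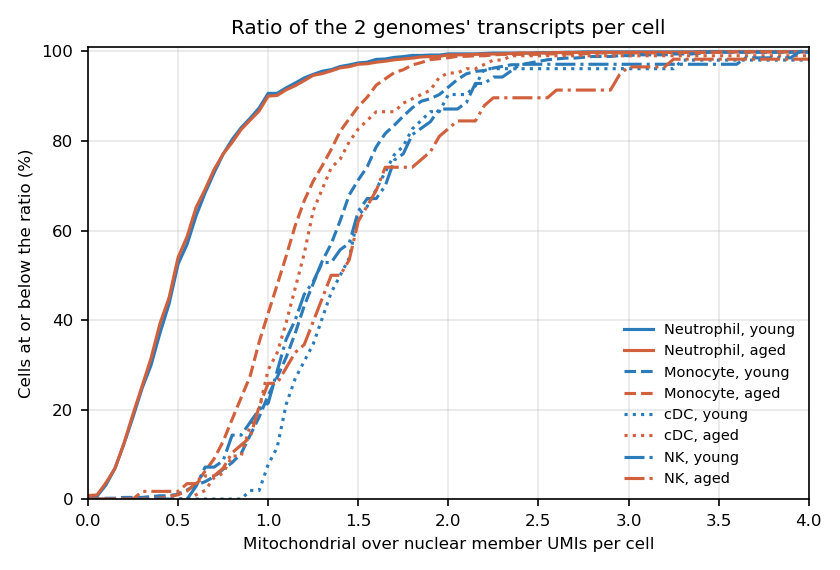
Cumulative share of cells (%) against the ratio of mitochondrial to nuclear member UMIs per cell, for neutrophils, monocytes, dendritic cells (cDC) and NK cells of the young (blue) and aged (orange) library. The neutrophil curves lie on each other with medians of 0.50 and 0.50, and the monocyte curves have medians of 1.27 and 1.07, the aged one to the left.

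The second comparison was of monocytes with neutrophils gene by gene, as the ratio of CPM. All 53 members were higher in monocytes in both libraries (31 nuclear and 13 mitochondrial ones with TMM scaling, below), beside 74.6% of all genes (46.7% with TMM). Of them 50 of 53 were at least 1.5-fold higher in both, 37 of 40 nuclear and 13 of 13 mitochondrial. That side holds most genes: of 7893 genes with at least 20 UMIs in each library, 60.2% were at least 1.5-fold higher in monocytes and 10.4% lower. The median log2 ratio, averaged over libraries, was 1.26 over all genes, 1.59 over the nuclear and 2.75 over the mitochondrial members. All 13 mitochondrial and 31 of the 40 nuclear genes lay above the median of all genes.

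Scaling by TMM, which centres on the bulk of genes, shifts every log2 ratio of monocytes over neutrophils by −0.99 and −1.32. The summed mitochondrial ratio was 5.78 and 6.63 without and 2.90 and 2.65 with it, and the nuclear 2.36 and 3.25 without and 1.18 and 1.30 with it. With TMM all 13 mitochondrial genes kept a ratio above 1 in both libraries, as did 31 nuclear genes, while 5 nuclear genes were under 1 in both. At least 1.5-fold higher were then 27 members beside 33.0% of all genes, and 1 was lower beside 28.8%.

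Of the mitochondrial complex I genes, mt-Nd1, a subunit of the membrane arm next to the quinone site, had the widest gap of all 53. It was at 139.6 and 88.7 CPM in neutrophils and 2781 and 2453 CPM in monocytes, ratios of 19.9 (17.7 to 22.5) and 27.7 (25.3 to 30.3). mt-Nd2, a proton-pumping subunit of the same arm, was at 52.3 and 26.3 CPM against 700.1 and 499 CPM, ratios of 13.4 (11.02 to 16.4) and 19.0 (16.1 to 22.6). The groups did not overlap for either gene. The ratios of the other pump subunits were 7.13 and 8.31 for mt-Nd4 and 4.60 and 4.16 for mt-Nd5, and those of the small subunits 8.51 and 8.53 for mt-Nd3 and 3.61 and 4.07 for mt-Nd4l. mt-Nd6, the member read from the other strand, had 3 and 3 UMIs in neutrophils and 26 and 31 in monocytes, too few to place it.

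mt-Cytb, the cytochrome b of complex III, was at 289.6 and 224 CPM in neutrophils and 2343 and 2228 CPM in monocytes, ratios of 8.09 and 9.95. mt-Co1, the subunit of complex IV where oxygen is reduced, had the narrowest gap of the 13 genes, with 1779 and 1515 CPM in neutrophils against 5114 and 4475 CPM in monocytes and ratios of 2.87 (2.77 to 2.98) and 2.95 (2.88 to 3.03). The other core subunits stood higher, mt-Co2 at 4.97 and 5.90 and mt-Co3 at 6.03 and 7.54. mt-Atp6, which forms the proton path of ATP synthase with the rotor ring, was at 723 and 542 CPM against 6223 and 5676 CPM, ratios of 8.61 (8.17 to 9.08) and 10.5 (10.1 to 10.9). mt-Atp8, whose last bases are also the first of mt-Atp6 in the sequence above, was seen with 15 and 20 UMIs in neutrophils and 146 and 94 in monocytes.

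The make-up of the mitochondrial UMIs therefore set neutrophils apart from the other leukocytes. mt-Co1 made up 36.7% (35.7% to 37.6%) and 39.5% (38.9% to 40.2%) of them in neutrophils, 18.2% and 17.6% in monocytes, 18.3% and 17.8% in dendritic cells, 16.7% and 20.03% in NK cells and 19.8% and 19.5% in B cells. mt-Nd1 made up 2.88% and 2.31% in neutrophils and 9.92% and 9.66% in monocytes, and mt-Atp6 14.9% and 14.2% against 22.2% and 22.3%. mt-Co3 differed less, with 19.7% and 19.5% against 20.5% and 22.2%, and its intervals overlapped in the young library but not in the aged one. The count of mt-Nd1 over that of mt-Co1 was 0.0785 and 0.0585 in neutrophils, 0.544 and 0.548 in monocytes, 0.548 and 0.567 in dendritic cells, 0.656 and 0.506 in NK cells and 0.439 and 0.426 in B cells. The intervals of monocytes, dendritic cells and aged NK cells overlapped, and those of neutrophils lay below those of the other 4 populations. The part of free RNA in these ratios was not tested. In the Eryth-Neutro cells mt-Co1 made up 40.9% and 41.6%, of only 93 and 137 mitochondrial UMIs.

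**Figure D3:**
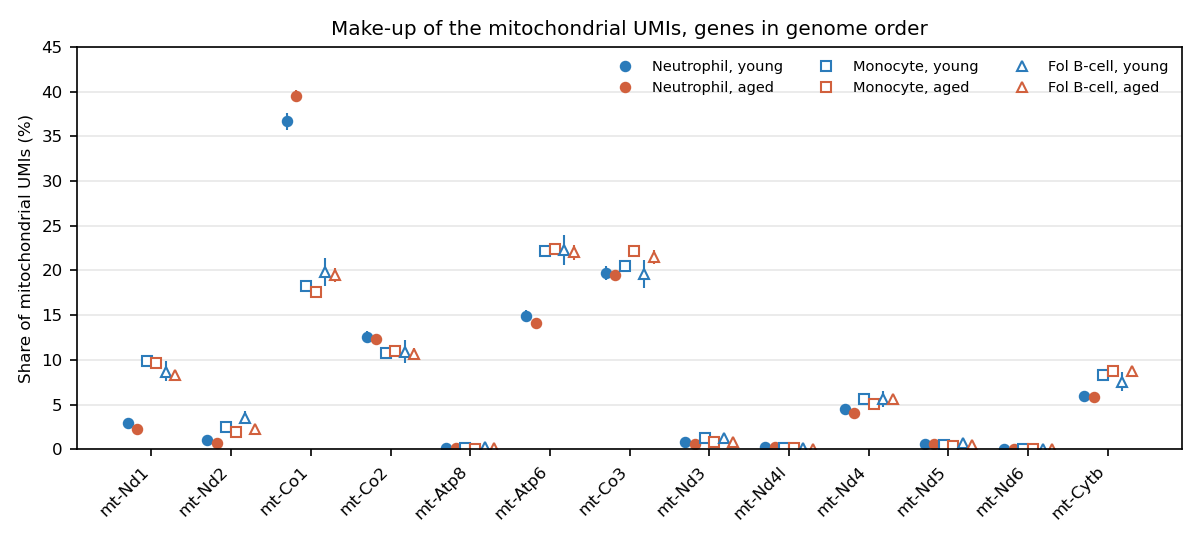
Share (%) of the mitochondrial UMIs that each of the 13 genes made up, in genome order, in neutrophils, monocytes and follicular B cells of the young (blue) and aged (orange) library, with 95% exact binomial intervals. mt-Co1 stands at 36.7% and 39.5% in neutrophils and at 18.2% and 17.6% in monocytes, and mt-Nd1 at 2.88% and 2.31% against 9.92% and 9.66%.

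Among the 10 nuclear complex I genes 9 were at least 1.5-fold higher in monocytes in both libraries, beside 60.2% of all genes. Ndufa4, which is now assigned to complex IV but is counted here in the sums of complex I, had the most UMIs. It was at 96.7 and 91.4 CPM in neutrophils and 559 and 699.6 CPM in monocytes, ratios of 5.78 and 7.65. Ndufb9, of the membrane arm, had the smallest lower bound of all members, with 242 and 213 CPM against 289 and 369.9 CPM and ratios of 1.19 (1.07 to 1.33) and 1.74 (1.62 to 1.87). In complex II, Sdhb, the iron-sulfur subunit, had ratios of 2.24 and 3.84, and the membrane anchors Sdhc and Sdhd ratios of 5.95 and 5.88 and of 2.05 and 3.04. In complex III the range ran from 1.60 and 2.15 for Uqcr10 to 5.96 and 7.66 for Uqcrb, with Uqcrh, the hinge protein and its most abundant nuclear subunit here, at 2.01 and 2.47.

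Cycs, cytochrome c, was at 20.2 and 14.8 CPM in neutrophils and 204 and 249 CPM in monocytes, ratios of 10.1 (7.37 to 14.2) and 16.8 (13.5 to 21.3). The 10 nuclear genes of complex IV had a median log2 ratio of 1.37. The median was 1.59 over all 40 nuclear members and 1.29 over the 5 of complex III. Cox4i1, a regulatory subunit, was at 702 and 594 CPM against 1526 and 1605 CPM, and Cox8a, one of the smallest subunits, at 934 and 755 CPM against 1142 and 1228 CPM with ratios of 1.22 (1.16 to 1.29) and 1.63 (1.57 to 1.69). Cox7b stood at the upper end of the complex with 4.83 and 7.99.

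In ATP synthase, Atp5g1 and Atp5g2, which encode the same mature c subunit of the rotor ring, had ratios of 11.1 (8.77 to 14.2) and 21.8 (18.2 to 26.3), and of 9.53 and 14.6. Atp5g1 was at 36.5 and 22.6 CPM in neutrophils and 405 and 493 CPM in monocytes. The subunits of the catalytic head, Atp5a1 and Atp5b, had 7.46 and 9.43, and 3.48 and 5.84. Atp5l, a membrane subunit at the interface of dimers, was at 1003 and 717 CPM against 1281 and 1337 CPM, ratios of 1.28 (1.21 to 1.35) and 1.87 (1.80 to 1.94). In neutrophils Atp5l and Cox8a were the most abundant of the 40 nuclear genes in both libraries, and Sdhc, Cycs and Atp5g1 the least.

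**Figure D4:**
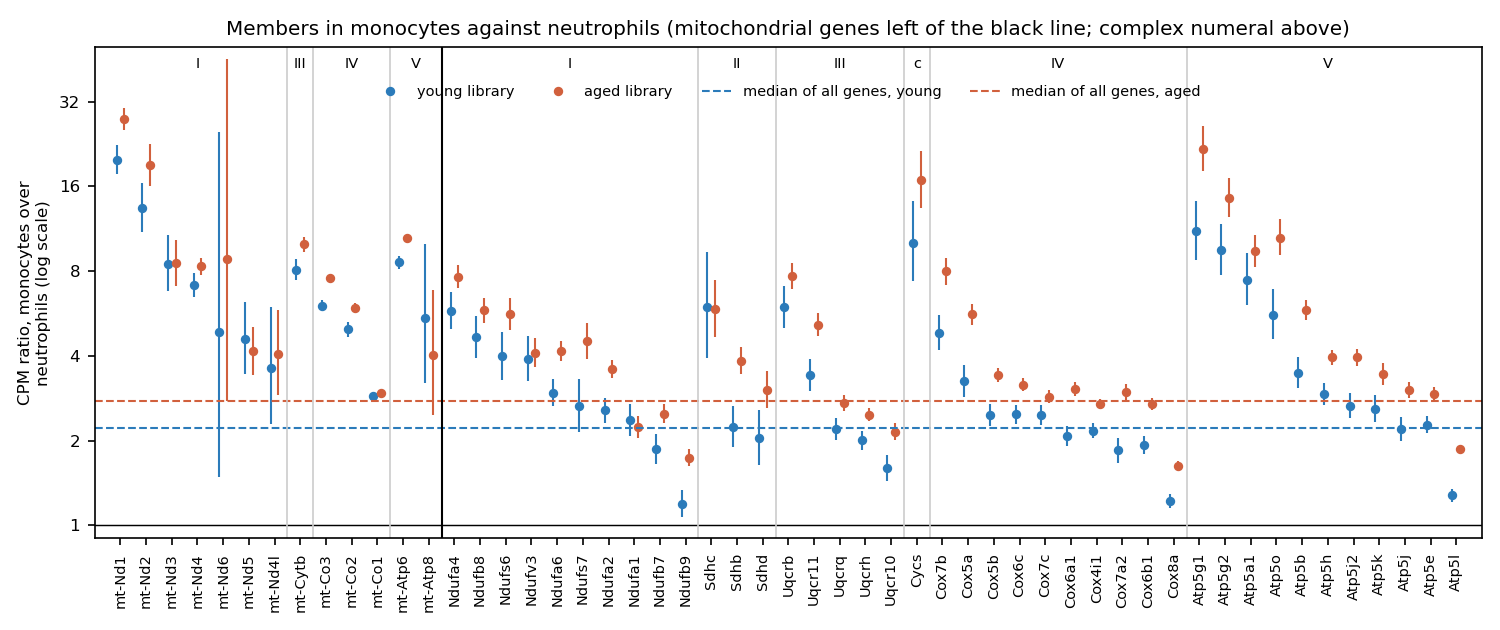
CPM ratio of monocytes over neutrophils (log scale) for each of the 53 genes, by genome and complex, with 95% exact conditional intervals, in the young (blue) and aged (orange) library; dashed lines are the medians of all genes. mt-Nd1 is highest at 19.9 and 27.7, and Ndufb9 (1.19 and 1.74) and Cox8a (1.22 and 1.63) lie lowest.

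Most nuclear subunits outside the 53 genes were also higher in monocytes. Of 27 further complex I genes 25 were at least 1.5-fold higher in monocytes in both libraries and 0 lower, beside 60.2% and 10.4% of all genes. Their median log2 ratio was 2.42, against 1.26 over all genes. All 5 further genes of complexes II and III were higher, as were 8 of 8 measured genes of complexes IV and V. With TMM scaling the counts of higher genes in these 3 groups were 16 of 27, 4 of 5 and 4 of 8, beside 33.0% of all genes. Of the complex I genes 1 was then lower, beside 28.8%. The inhibitor of ATP synthase, Atpif1, had ratios of 2.52 and 3.51. Of 8 isoforms known mainly from other tissues 2 had a row, Cox6b2 and Cox7a1, and Cox6b2 was at 22.1 and 19.5 CPM in monocytes.

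NRF1 and factors of the ETS family are textbook regulators of nuclear respiratory genes, and the 250 bases before each start were searched on both strands for the core NRF1 palindrome, for CCGGAAG (ETS) and for AAGATGGC (YY1). The ETS and YY1 letters can overlap at AAG. RefSeq promoters (GRCm38.p6) were matched for 32 of 40 genes. The NRF1 letters were in 6 of them, 18.8%, against 4.23% of 27025 genes. The ETS letters were in 10, 31.25%, against 7.83%, and the YY1 letters in 1 against 1.83%. Printed below, on the gene's strand and ending at the base before the RefSeq start, are 180 bases of the promoters of Cox6a1 and Atp5h, which hold both NRF1 and ETS letters, and of Atp5k, which has NRF1 letters alone and was among the genes lowest in the aged library. Capitals mark the matches (CTTCCGG is the ETS run read on the other strand), which describe letters and not binding. GENCODE M21 starts these genes further upstream, so that the last 23.0, 43.0 and 49.0 bases shown lie inside its Cox6a1, Atp5h and Atp5k gene models, and with them the ETS runs of Cox6a1 and Atp5h and all but 1 base of the NRF1 run of Atp5k.
Cox6a1 (chr5:115348959-115349138, minus strand): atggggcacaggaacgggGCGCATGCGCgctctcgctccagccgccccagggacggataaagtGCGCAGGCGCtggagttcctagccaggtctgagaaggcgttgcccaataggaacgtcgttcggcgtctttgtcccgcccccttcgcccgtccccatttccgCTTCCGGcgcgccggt
Atp5h (chr11:115419920-115420099, minus strand): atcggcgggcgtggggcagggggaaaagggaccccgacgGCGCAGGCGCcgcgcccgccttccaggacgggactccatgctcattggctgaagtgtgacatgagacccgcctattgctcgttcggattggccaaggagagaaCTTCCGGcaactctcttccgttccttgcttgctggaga
Atp5k (chr5:108434400-108434579, minus strand): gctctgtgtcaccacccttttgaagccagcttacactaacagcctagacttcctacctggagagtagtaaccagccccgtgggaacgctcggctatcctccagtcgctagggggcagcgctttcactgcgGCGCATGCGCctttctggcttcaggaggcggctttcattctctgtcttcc
The ratios of monocytes over neutrophils for these genes were 2.08 and 3.06 for Cox6a1, 2.92 and 3.95 for Atp5h and 2.59 and 3.45 for Atp5k, and those of aged over young monocytes 1.19, 1.16 and 0.731.

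The third comparison was of the aged with the young library. In neutrophils both kinds of gene, as sums, were lower in the aged library by the same factor. The nuclear sum was at 0.788 (0.774 to 0.802) and the mitochondrial sum at 0.790 (0.771 to 0.809). With TMM scaling these became 0.978 (0.962 to 0.995) and 0.980 (0.957 to 1.004). By complex the ratios were less even. Mitochondrial complex I stood at 0.660 (0.611 to 0.714) and mitochondrial complex IV at 0.819 (0.796 to 0.843). Nuclear complex I stood at 0.828 (0.791 to 0.868) and nuclear complex V at 0.723 (0.700 to 0.747). With TMM these became, in that order, 0.820, 1.02, 1.03 and 0.897. In monocytes the kinds parted. There the nuclear sum was 1.09 (1.08 to 1.10) and the mitochondrial sum 0.906 (0.898 to 0.913) times the young one, or 1.09 and 0.911 with TMM. Over all genes the median log2 ratio was −0.26 in neutrophils and 0.00 in monocytes, and TMM shifts the log2 ratios by 0.31 and 0.01. Dendritic cells resembled monocytes, at 1.10 (1.07 to 1.13) nuclear and 0.915 (0.893 to 0.938) mitochondrial, whereas NK cells had 0.930 (0.879 to 0.985) and 1.02 (0.969 to 1.07). B cells, with few young cells, had the highest nuclear ratio, 1.34 (1.25 to 1.44), next to a mitochondrial one of 0.994 (0.951 to 1.04).

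In neutrophils 0 of 52 measured members stood 1.5-fold or more above the young level, beside 5.78% of 6522 genes, and 11 were lower, 7 nuclear and 4 mitochondrial, beside 24.8%. The count of lower members is near the share among all genes. With TMM it was 1 higher and 2 lower, beside 12.8% and 10.6%. Atp5k, the e subunit of ATP synthase, stood lowest by its upper bound, at 195 and 107 CPM, or 0.549 (0.483 to 0.625) times the young level. Next came mt-Nd2 at 0.502 (0.388 to 0.652), Atp5e, the epsilon subunit of the central stalk, at 497 and 310.2 CPM and 0.624 (0.577 to 0.675), and Ndufa6, an accessory subunit of complex I, at 0.643 (0.565 to 0.732). All 4 upper bounds lay below the summed ratio of 0.788. The members with the highest lower bounds were Ndufb8 at 0.995 (0.827 to 1.20), Uqcrb at 1.00 (0.827 to 1.22), mt-Co1 at 0.851 (0.819 to 0.886) and Cox5b at 0.901 (0.819 to 0.993). Sdhc had the highest ratio with a wide interval, 1.26 (0.797 to 2.05). All 12 measured mitochondrial and 38 of the 40 nuclear genes had a ratio under 1 (10 and 18 with TMM scaling), beside 72.7% of all genes (45% with TMM), and no member had an interval above 1.

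In monocytes 0 of 53 members stood 1.5-fold or more above the young level and 2 as far below it, both mitochondrial, beside 7.44% and 11.2% of 9325 genes. TMM scaling left these counts at 0 and 2, beside 7.76% and 11.1%. Differences were smaller than that threshold but ran by genome. Of the 40 nuclear genes 28 had a ratio above 1 (29 with TMM), beside 49.9% of all genes (50.6% with TMM), and for 27 the interval lay above 1, beside 16.3%. Intervals are narrower for genes with more UMIs, so this last share also reflects abundance. Atp5b, the catalytic beta subunit of ATP synthase, was highest at 482 and 708 CPM, 1.47 (1.39 to 1.55) times the young level. Sdhb followed at 1.44 (1.32 to 1.57), then Cox5a, a subunit on the matrix side of complex IV, at 445 and 608 CPM and 1.36 (1.29 to 1.45), and Cox7a2 at 1.30 (1.23 to 1.38). Atp5k at 0.731 (0.687 to 0.777) and Atp5e at 0.803 (0.772 to 0.836) were the lowest nuclear genes, as they had been among the lowest in neutrophils. In 16 of the 40 nuclear and 0 of the mitochondrial genes the interval lay below 1 in neutrophils and above 1 in monocytes, and in 0 the reverse, beside 5.25% and 0.206% of all genes measured in both. With TMM scaling the first count was 2, beside 1.43%. These counts rest on intervals too, so they also reflect abundance.

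All 13 mitochondrial genes had a ratio under 1 in monocytes, with and without TMM, from 0.981 for mt-Co3 to 0.364 (0.278 to 0.475) for mt-Atp8. mt-Nd3 was at 340.0 and 195 CPM, or 0.572 (0.529 to 0.620) times the young level, and mt-Nd2 at 0.712 (0.676 to 0.751). The more abundant genes lay nearer to 1, though not in order of abundance. mt-Cytb was at 0.951, mt-Co2 at 0.926, mt-Atp6 at 0.912, mt-Nd1 at 0.882 and mt-Co1 at 0.875. mt-Atp8, mt-Nd4l and mt-Nd3 are the shortest of the 13 genes, at 204, 297 and 348 bases, whereas mt-Nd2 has 1038. mt-Nd4l was at 0.797 (0.639 to 0.995), and the longest gene, mt-Nd5, of 1824 bases, at 0.787 (0.696 to 0.891), with intervals that overlapped. The part of length in these ratios was not tested.

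**Figure D5:**
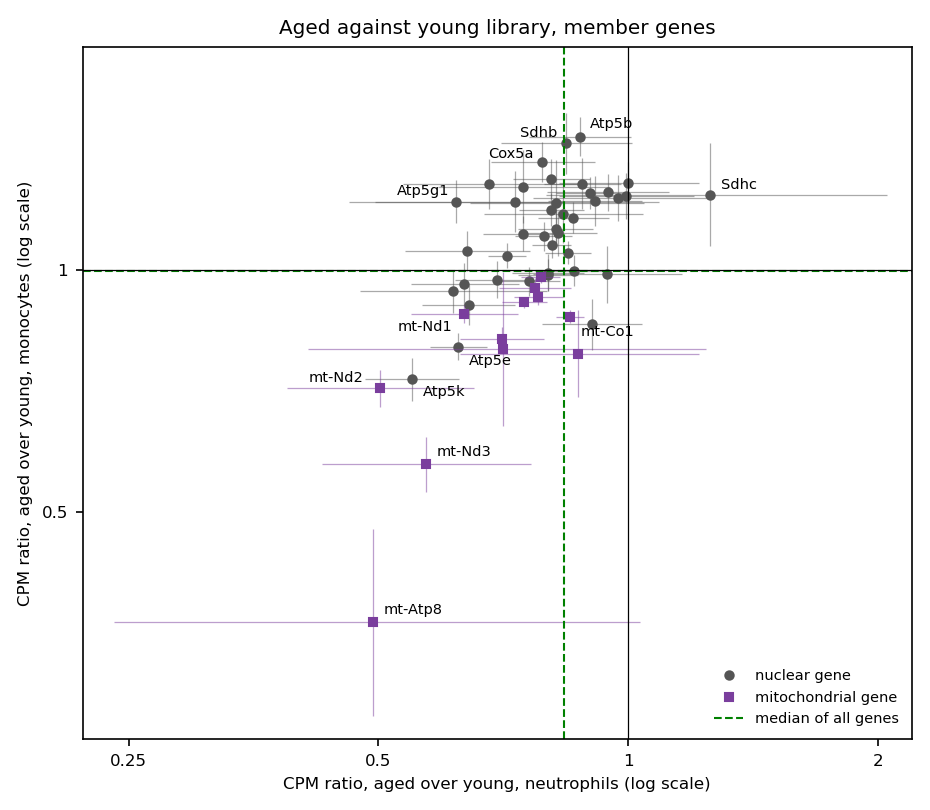
CPM ratio of aged over young for each member with at least 20 UMIs in neutrophils, with neutrophils on the horizontal and monocytes on the vertical axis (log scales) and 95% exact conditional intervals; squares are mitochondrial and circles nuclear genes. Dashed lines are the medians of all genes. All squares lie below 1 on both axes (with TMM scaling 10 of these 12 genes do in neutrophils), while most circles lie left of 1 and above 1, as Atp5b does (0.875 and 1.47).

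Some members had a ratio of aged over young under 1 in each population. Of 51 members measured in all 5, 8 had a ratio under 1 in neutrophils, monocytes, dendritic cells, NK cells and B cells alike: mt-Nd1, mt-Nd2, mt-Nd3, mt-Nd4l, mt-Co2, mt-Atp8, Atp5e and Atp5k. The same held for 9.47% of 4433 genes measured alike, so 2 of 39 nuclear members are near that share, and 6 of 12 mitochondrial ones are above it. With TMM scaling all 8 kept a ratio under 1 in neutrophils and monocytes. These are ratios without regard to intervals, and several intervals included 1. Examples are mt-Nd1 in NK cells, 0.944 (0.810 to 1.10), and mt-Co2 in dendritic cells, 0.963 (0.890 to 1.04). mt-Nd4l rested on 8 and 2 UMIs in NK cells and on 3 and 7 in B cells. mt-Nd4l and mt-Atp8 also share bases with the next gene, so their counts may not be separate from those of mt-Nd4 and mt-Atp6. For mt-Nd2 the interval lay below 1 in all 5. In that order of populations mt-Nd3 stood at 0.571, 0.572, 0.747, 0.460 and 0.688, and mt-Nd2 at 0.502, 0.712, 0.787, 0.602 and 0.660. Uqcrb, a small subunit of complex III, was the only member measured in all 5 with no ratio under 1, beside 4.11% of all genes. It stood at 1.00 (0.827 to 1.22), 1.29, 1.24, 1.30 and 2.52. These populations come from the same pair of libraries, so they do not repeat the comparison.

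Markers of cell state also differed between the libraries. Monocytes with a UMI of the cycling gene list when thinned to 500 UMIs were 2.41% and 8.91% of all, only 13 and 83 cells. In them the nuclear share was 2.15% and 2.60%, against 2.21% and 2.38% in the rest. Their ratio of mitochondrial to nuclear UMIs was 1.11 and 0.897, against 1.27 and 1.08 in the rest. Without these cells the summed nuclear ratio of aged over young monocytes was 1.08 and the mitochondrial 0.910, with Atp5b at 1.44 (1.36 to 1.53) and mt-Nd3 at 0.578 (0.533 to 0.628). Neutrophils with a UMI of Camp, Ltf or Ngp, granule genes made at an early stage of neutrophil development, were 17.1% and 22.4% of all, with a ratio of mitochondrial to nuclear UMIs of 0.582 and 0.552 against 0.503 and 0.508 in the rest. Without them the neutrophil sums were 0.779 (nuclear) and 0.786 (mitochondrial) times the young ones.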

How the data were processed

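Droplet libraries (10x Chromium 3′ v2, per the labels' protocols) were counted by the authors into UMIs, and the deposited table gives whole counts for each gene in each cell, with a library and a population name from the authors. Cell Ranger 2.1.1 and mm10 appear in the submitters' processing notes. How cells and genes had been filtered, and whether mice were pooled, is not given in the sources used here. The members and lists were chosen with earlier results of these data known.

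No cell failed the filter (200 genes, 500 UMIs, at most 10% mitochondrial). Scrublet scores (scanpy 1.11.5) ranked cells, and the top 27 young and 124 aged were removed, 8 per 1000 cells for each 1000 cells, since the automatic threshold called 4 and 0. UMIs were summed over the cells of a population in each library and scaled to their sum. Ratios have exact conditional binomial intervals and shares Clopper-Pearson intervals (95%). A member or other gene was compared from 20 UMIs over both groups, with at least 1 in each. The library method captures 3′ ends, so no length was divided out. Where genes share bases with the next one, as mt-Atp8 and mt-Nd4l do, their UMIs may not stand for separate transcripts. Near-identical copies elsewhere in the genome can take reads from members, so single genes are uncertain to that extent. GENCODE M21 has 2 overlapping entries for Atp5o, which got no position. TMM factors came from edgeR 4.0.16. The ratio and its interval were tested on simulated counts. Named genes were the 4 highest and 4 lowest per comparison with at least 50 UMIs (the highest by the lower bound of the interval and the lowest by its upper bound, or for monocytes over neutrophils by the lower bounds of both libraries), the most abundant member of each complex and genome, all mitochondrial genes, and up to 3 genes with the most UMIs per further list. Further members, Mrpl33 and Prdx5 were chosen after their values were seen. Cell filter, doublets, depth, weighting, totals, minimum and fold were varied.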

Additional observations from a re-analysis of the deposited data

Results flagged for a closer look

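The summed nuclear members lay on opposite sides of 1 in the same comparison of the libraries, at 0.788 in aged over young neutrophils and at 1.09 in aged over young monocytes. With 1 library per age this difference was not tested. By gene, 16 of the 40 nuclear members had an interval below 1 in neutrophils and above 1 in monocytes, and 0 had the reverse, beside 5.25% and 0.206% of all genes measured in both. Among them were Cox5a (0.789 and 1.36), Cox7a2 (0.808 and 1.30) and Atp5g1 (0.620 and 1.22). Intervals are narrower for genes with more UMIs, so the count of 16 also reflects abundance. With TMM scaling that count was 2, beside 1.43%, and the sums were 0.978 and 1.09. With calprotectin and Retnlg left out of the totals the sums were 0.906 and 1.10.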

How the results depend on the processing

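No paired analysis was possible because each age has 1 library and no test was made. Over 26 results and 13 settings, 138 values stayed within their interval or within 1.5 times the count, while 60 moved. None reversed, which bears on ratios only, since a count or a share has no side of 1 to change. Single genes did change sides. Nuclear members with a ratio under 1 in aged over young neutrophils were 38 of 40, and 18 with TMM scaling. Values given with no age follow the order young, aged. The totals moved the levels most. With calprotectin (S100a8, S100a9) and Retnlg left out, neutrophils had nuclear shares of 1.397% and 1.266% and mitochondrial shares of 0.7235% and 0.6571%, and monocytes 2.259% and 2.484% nuclear and 2.872% and 2.628% mitochondrial. The sums of aged over young were then 0.9062 nuclear and 0.9082 mitochondrial in neutrophils and 1.099 and 0.9151 in monocytes, and 4 members were lower in aged neutrophils. With ribosomal genes left out, neutrophils had 0.9998% and 0.7678% nuclear and 0.5177% and 0.3984% mitochondrial, and monocytes 3.011% and 3.145% nuclear and 3.827% and 3.328% mitochondrial. The sums of aged over young were then 0.768 and 0.7697 in neutrophils and 1.045 and 0.8695 in monocytes. TMM scaling gave 0.9783 and 0.9804 in neutrophils. With it 27 members were higher and 1 lower in monocytes against neutrophils, beside 33.0% and 28.8% of all genes. In aged neutrophils 1 was higher and 2 lower, beside 12.8% and 10.6%. Thinning to 500 UMIs gave 0.9546% nuclear in young and 0.3753% mitochondrial in aged neutrophils, a ratio of 0.5067 in aged neutrophils and 0.7639 for their mitochondrial sum over the young one. Thinned monocytes had 2.191% and 2.388% nuclear, 2.555% mitochondrial in the aged library, ratios of 1.287 and 1.07, and 4 members higher and 1 lower of 51, beside 17.2% and 11.6% of all genes. The mean of shares per cell gave 0.9526% nuclear in young neutrophils, 2.177% and 2.373% nuclear and ratios of 1.286 and 1.071 in monocytes, and 1 member higher in aged monocytes. At a common lowest depth, young neutrophils had 0.911% nuclear and a ratio of 0.5315, the nuclear sum of aged over young neutrophils was 0.8104, and 1 member was higher. The stricter cell filter gave 0.7489% nuclear and 0.3923% mitochondrial in aged neutrophils. Without doublet removal aged monocytes had 2.383% nuclear and 2.508% mitochondrial, and a mitochondrial sum of 0.8981 times the young one. At a 2-fold threshold 1 member was lower in aged neutrophils and 1 in aged monocytes. Counts in this paragraph without a share of all genes beside them show only how the setting moved the count. They do not set the members apart from other genes. Leaving out monocytes with a UMI of the cycling list, chosen after seeing the data, gave 1.077 for their nuclear sum of aged over young. Beyond the effect of each setting on totals, cells or genes counted, the cause was not tested. Counting error limits mt-Nd6 and mt-Atp8 most.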

Other observations

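Most measured genes of the other mitochondrial lists were higher in monocytes than in neutrophils, as are most genes of the table. Of 71 measured genes of the mitochondrial ribosome, which translates the 13 mitochondrial members, 67 were at least 1.5-fold higher in monocytes in both libraries and 1 was lower, beside 60.2% and 10.4% of all genes. With TMM scaling 52 were higher and 4 lower, beside 33.0% and 28.8%. The lower gene without TMM was Mrpl33, a protein of its large subunit, at 1581 and 1357 CPM in neutrophils and 817 and 750.5 CPM in monocytes. Of 16 measured tricarboxylic acid cycle genes 15 were higher (12 with TMM), and of 19 measured protein import genes 16 (13 with TMM, and 3 lower). Cox17, the copper chaperone for complex IV, was at 365 and 218 CPM in neutrophils and 209 and 180.4 CPM in monocytes. Genes that express mitochondrial DNA (transcription, replication and RNA processing) were higher for 10 and lower for 0 of 12 (7 and 0 with TMM). Assembly factors of the complexes were higher for 20 of 29, or 69.0%, a share near that of all genes, and with TMM 12 were higher and 5 lower. Among 9 genes of defence against reactive oxygen 7 were higher in monocytes (6 with TMM, and 2 lower) and 1 lower, Prdx5, a peroxiredoxin, at 2074 and 2358 CPM in neutrophils and 1191 and 1254 CPM in monocytes.

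In aged over young monocytes, 69 of 76 measured mitochondrial ribosome genes lay above the median of all genes. Their median log2 ratio was 0.26, and 7 were at least 1.5-fold higher, beside 7.44% of all genes. Tricarboxylic acid cycle genes had a median log2 ratio of 0.28, with 1 of 17 at least 1.5-fold higher and Mdh2, mitochondrial malate dehydrogenase, at 1.49 (1.37 to 1.63). The further complex I genes had a median log2 ratio of 0.32, with 2 of 27 higher. Ucp2, an inner membrane carrier of the uncoupling protein family, stood at 0.703 (0.667 to 0.741) in monocytes and 0.853 in neutrophils. All 9 measured genes of the cycling list were at least 1.5-fold higher in aged monocytes.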
